A study of Mytilus galloprovincialis with 16 samples.

Results

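The mRNA levels of male digestive gland of the mussel Mytilus galloprovincialis were compared between stage 2 and stage 3 of gonad development. The values used were those of the male channel on the 4 stage 2 and the 4 stage 3 arrays, that is 8 of the 16 arrays of the study. Each array was a two-colour cDNA array hybridised with digestive gland RNA of 1 wild male and 1 wild female from the Bizerta Lagoon in Tunisia, untreated and at the same stage. By the study's histological scheme, stage 2 is development of the gonad and stage 3 is the ripe gonad. The labels date the stage 2 mussels to January 2007 and the stage 3 mussels to February 2008, whereas the study's methods place stage 2 in January 2008. Stage and month of sampling went together in either case, so that an effect of the stage and one of the season cannot be told apart. No age is given in the labels, and wild animals of 1 lagoon are the only population sampled.

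The digestive gland is the main organ of intracellular digestion and of nutrient storage in bivalves. Its reserves can be drawn on while gametes form in the mantle, so that its transcripts are commonly followed through the reproductive cycle. The gland also detoxifies metals and organic compounds and holds digestive, secretory and blood cells, all of which contribute RNA to a bulk extract. Fewer cells of a type and less RNA per cell cannot be told apart in such an extract.

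The array carried 1920 cDNA clones, each spotted 2 times among 4560 spots. No table used here ties a clone to a gene, so clones are given by their identifiers, at most 2 in each direction. For the same reason the tissue label could not be checked against marker genes, and no gene group could be followed. The level of a clone is the log2 of its fluorescence intensity in the male channel after background correction and normalisation, averaged over its spots. A difference of 1 on this scale is a 2-fold difference.

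Male RNA carried Cy5 in stage 2 replicates 1 and 2 and in stage 3 replicates 1 and 3, and Cy3 on the other arrays. The dyes were thus balanced within each stage, and the dye of the male entered the model. Between 19.8% and 41.1% of clone spots were above background in the male channel, against 0.164% to 1.81% of blank spots. No male spot was saturated. Of the 1920 clones, 303 were above background on all 8 arrays and 676 on none. Male levels correlated over clones at r = 0.779 to 0.921 between stage 2 arrays, at 0.772 to 0.940 between stage 3 arrays and at 0.740 to 0.898 between stages. Stage 3 replicate 4 stood apart, with r = 0.747 to 0.827 against the other 7 arrays and the lowest agreement between duplicate spots (r = 0.789). Stage 2 replicate 4 came near to it, with r = 0.740 to 0.884 against the other 7 arrays and the next lowest agreement between duplicate spots (r = 0.842). A point on the labels touches every result. The male over female ratios of stage 2, averaged over arrays, ran opposite to those of the other stages across clones (r = -0.589 with stage 1, -0.212 with stage 3 and -0.363 with stage 4, n = 1920), while stages 3 and 4 were alike (r = 0.878). Ratios of single arrays were less uniform. Pairs of arrays correlated at r = -0.077 to 0.673 within stage 2 and at -0.0177 to 0.912 within stage 3. Between these stages pairs ran from -0.287 to 0.128. The stage 4 average held replicates 2 and 4 as separate arrays, although they are counted as 1 sample below. The sexes were kept as the labels and dyes give them, and the main counts, the named clones and the levels by stage are also given with the sexes of stage 2 exchanged.

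Transcript levels were tested with limma, and p-values were adjusted over all 1920 clones by the Benjamini-Hochberg method, with a threshold of 0.05. In stage 3 males 13 clones were higher and 4 were lower than in stage 2 males. These 17 clones were 0.885% of those tested (0.677% higher and 0.208% lower). The 13 higher clones differed by a median of 1.64 on the log2 scale (range 0.94 to 4.26), and the 4 lower clones by -1.76 (range -2.02 to -1.42), beside -0.01 over all clones. Exchanging the sexes of stage 2 gave 161 calls (8.39%), 81 higher (4.22%) and 80 lower (4.17%), with 15 of the 17 among them. Of the 17 clones, 15 exceeded 2-fold. In each of the 17 the 4 values of a stage did not overlap the 4 of the other stage, as was so in 7.97% of all clones, 4.58% higher and 3.39% lower. Before adjustment 283 clones had a p under 0.05 (14.7%), 148 higher and 135 lower. The B statistic (log odds of a true difference) exceeded 0 in 25 clones (1.3%), 16 higher (0.833%) and 9 lower (0.469%).

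The split between higher and lower clones moved with the processing. It was 13 to 4 as given, 8 to 5 with print-tip loess, 12 to 7 with quantile normalisation of single channels and 7 to 4 with male channels centred on their median. It was near even with plain background subtraction (8 to 7) and with the 2 spots of a clone kept apart (61 to 56). It was also near even in a fit of both sexes (15 to 15) and with the sexes of stage 2 exchanged. It was more one-sided without the dye term (14 to 2), with 16 arrays normalised together (14 to 3) and without background correction (3 to 0). Leaving out stage 3 replicate 4 gave 18 to 1, and leaving out stage 2 replicate 2 gave 0 to 2. The number of calls also rested on single arrays. It was 0 when replicate 1, 3 or 4 of stage 2 or replicate 3 of stage 3 was left out. It was 2 when the other stage 2 array, replicate 2, was left out. Leaving out a stage 3 array gave 1 call for replicate 1, 9 for replicate 2 and 19 for replicate 4. The estimates moved less. Over 20 refits of the comparison, which included those 8, each of the 17 clones kept its sign, and their unadjusted limma p was at most 0.00212 in the fits that left out an array. Both follow in large part from the choice of these clones by their p in the same arrays.

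**Figure D1:**
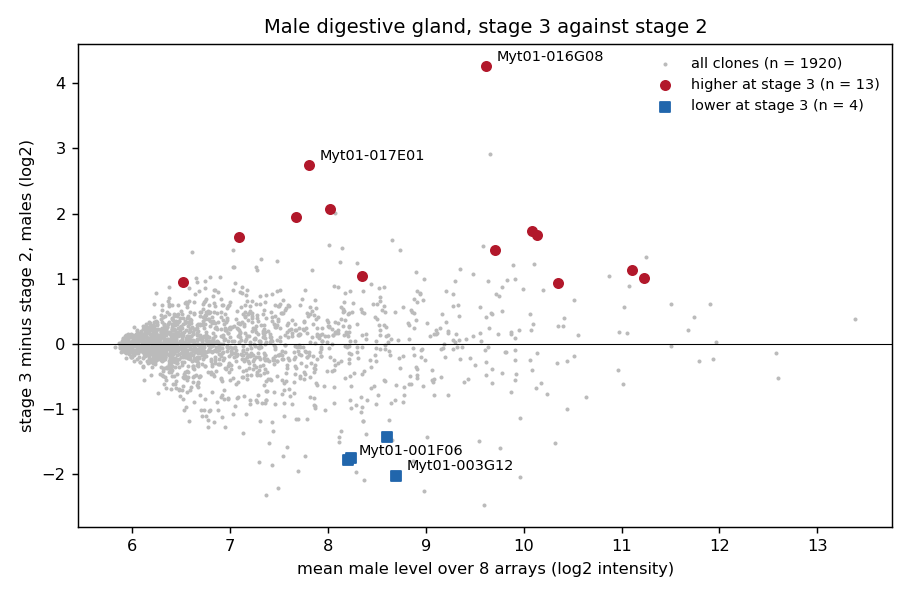
Difference between stage 3 and stage 2 males (log2) against the mean male level over 8 arrays (log2 intensity) for 1920 clones. The 13 higher clones lie between mean levels of 6.52 and 11.23, and the 4 lower clones between 8.20 and 8.70.

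The called clones were mostly bright on the array, which does not rank transcripts by abundance, since probes differ in their signal. The mean male level was in the top 25% of all clones for 15 of the 17, in the top 10% for 9 and outside the top 50% for 1. The spread between males grew with the level, from a median SD within stages of 0.14 in the dimmest 25% of clones to 0.53 in the brightest 25%. The median size of the stage difference grew likewise, from 0.08 to 0.39. An unadjusted p under 0.05 was found in 1.25% of the dimmest and in 25.2% of the brightest of these groups. Among the 50 clones brightest in males, all above a mean level of 9.95, 5 were called, 29 were higher at stage 3, and 7 were over 2-fold higher and 3 over 2-fold lower, whatever their p.

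The largest difference was that of clone Myt01-016G08. Its male level was 7.14, 6.94, 8.02 and 7.82 in stage 2 replicates 1 to 4. It was 12.59, 12.23, 12.35 and 9.80 in stage 3 replicates 1 to 4. All stage 3 males were above all stage 2 males, with stage 3 replicate 4 nearest to them. The mean went from 7.48 ± 0.52 to 11.74 ± 1.30 (SD, n = 4), which is 19.2-fold higher at stage 3 (log2 4.26, SE 0.64, limma adjusted p = 0.0450). The estimate was 5.43 between arrays with the male in Cy5 and 3.09 between arrays with the male in Cy3. It ranged from 3.98 to 4.98 when single arrays were left out, and the call held only without stage 3 replicate 4 (4.98, limma adjusted p = 0.00168).

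The females on the same arrays gave another picture for Myt01-016G08. Their levels were 9.88, 10.35, 7.79 and 7.79 in stage 2 replicates 1 to 4. They were 7.40, 9.13, 7.32 and 10.13 in stage 3 replicates 1 to 4. High and low females were present at each stage, and the stages overlapped. The female difference was -0.46 (SE 0.88, limma adjusted p = 0.797), and the male difference exceeded it by 4.72, which did not pass (SE 1.46, limma adjusted p = 0.133). On stage 3 replicate 4, where the male was lowest, the female was the highest of its stage. With the sexes of stage 2 exchanged, the difference of Myt01-016G08 was 2.79 (limma adjusted p = 0.104).

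The next in size was Myt01-017E01. Its male level was 6.10, 6.32, 6.40 and 6.94 in stage 2 replicates 1 to 4. In stage 3 replicates 1 to 4 it was 9.98, 8.92, 9.59 and 8.22. The stages were well separated, and replicate 4 was again the lowest stage 3 male. The measured means were 6.44 ± 0.36 and 9.18 ± 0.78 (SD, n = 4; log2 2.74, SE 0.38, limma adjusted p = 0.0369). Since no stage 2 male was above background, only a bound holds, and this transcript was at least 5.18-fold higher at stage 3. For the bound, the stage 2 value on each array was raised to the dimmest clone above background there, unless the clone itself was brighter, and the mean of these was set against the stage 3 mean. The difference was 3.58 within Cy5 and 1.90 within Cy3, and 2.49 with the sexes of stage 2 exchanged (limma adjusted p = 0.0112). As for the first clone, the call held when stage 3 replicate 4 was left out and was lost when any other array was. In females of the same arrays the difference was 0.16 (SE 0.56, limma adjusted p = 0.887). The female level was 8.58 on stage 3 replicate 4, above the male there, and at most 6.79 on the other stage 3 arrays. The log2 ratio of male over female was -0.36 on stage 3 replicate 4 and 2.12 to 3.98 on the other stage 3 arrays.

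Of the 4 clones that were lower at stage 3, Myt01-003G12 differed most. Its male level was 8.79, 8.44, 10.29 and 11.30 in stage 2 replicates 1 to 4. In stage 3 replicates 1 to 4 it was 6.86, 8.31, 7.34 and 8.24. The stages did not overlap, but stage 2 replicate 2 lay only just above the highest stage 3 male. At each stage the males labelled with Cy3 were above those labelled with Cy5. The mean went from 9.71 ± 1.33 to 7.69 ± 0.71 (SD, n = 4), which is 4.05-fold lower (log2 -2.02, SE 0.30, limma adjusted p = 0.0450). The estimate was -1.52 within Cy5 and -2.52 within Cy3. With the sexes of stage 2 exchanged it was -0.72 (limma adjusted p = 0.251).

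The second, Myt01-001F06, had male levels of 8.11, 8.61, 9.77 and 9.88 in stage 2 replicates 1 to 4. They were 6.97, 7.43, 7.38 and 7.46 in stage 3 replicates 1 to 4. The stage 3 males were close together and all below the stage 2 males, which again separated by dye. The mean went from 9.09 ± 0.87 to 7.31 ± 0.23 (SD, n = 4), or 3.44-fold lower (log2 -1.78, SE 0.27, limma adjusted p = 0.0450). The estimate was -1.18 within Cy5 and -2.38 within Cy3, and -0.79 with the sexes of stage 2 exchanged (limma adjusted p = 0.0157). The calls of Myt01-003G12 and Myt01-001F06 were lost without any single array. Without the dye term in the model neither clone was called (limma adjusted p = 0.258 and 0.0994). Their female differences were -0.13 (SE 0.34, limma adjusted p = 0.847) and -0.54 (SE 0.15, limma adjusted p = 0.0675).

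**Figure D2:**
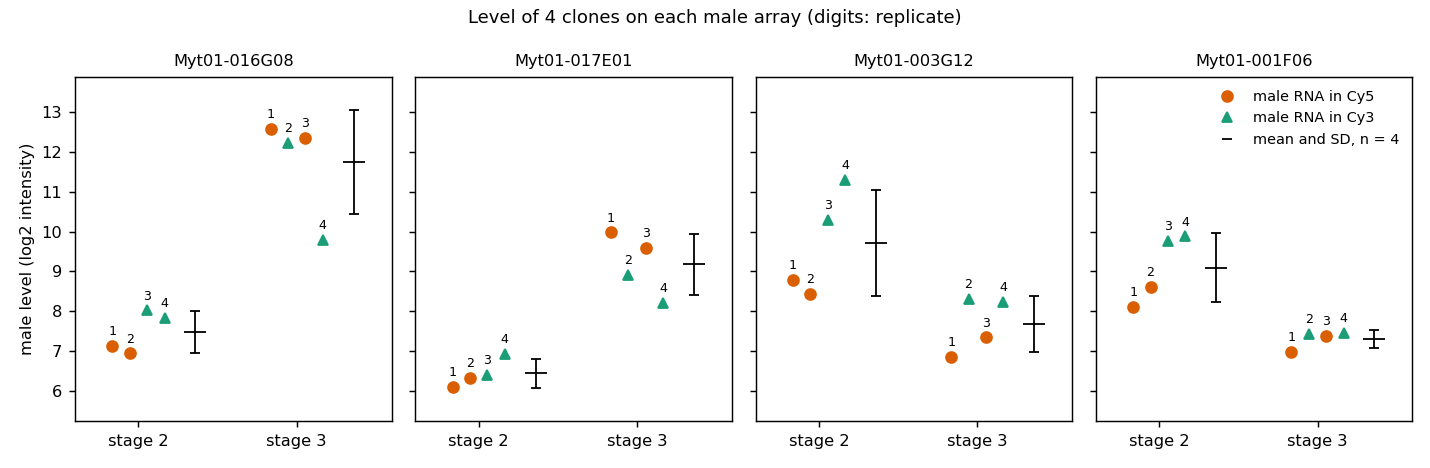
Male level (log2 intensity) of 4 clones on each stage 2 and stage 3 array, with the dye of the male by colour and shape, the replicate as a digit and the mean and SD (n = 4) as a bar. In Myt01-016G08, stage 3 replicate 4 at 9.80 lies between the stage 2 males and the other stage 3 males, which reach 12.59.

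The other 11 higher clones differed by less, and most of them varied little between males. The most uniform went from 10.73 ± 0.10 to 11.73 ± 0.07 in males (SD, n = 4; log2 1.01, SE 0.11, limma adjusted p = 0.0241). The clone with the third largest increase went from 6.98 ± 0.33 to 9.06 ± 0.49 (SD, n = 4; log2 2.07, SE 0.22, limma adjusted p = 0.0241). A further pair of higher clones was above background on no stage 2 array. The first was above background on all 4 stage 3 arrays and was at least 2.26-fold higher at stage 3. The second was above background on only 2 of them, so that its value of 1.20-fold is not a firm bound. In the 13 clones, replicate 4 was the lowest stage 3 male for 8 (61.5%, beside 31.9% of all clones) and replicate 1 the highest for 8 (61.5%, beside 29.3%). The 4 lower clones had replicate 4 as the highest stage 2 male in each case, as did 30.3% of all clones.

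The difference had the same sign within either dye for 17 of 17 clones. The higher clones had a median of 2.03 within Cy5 and 1.19 within Cy3, and the lower clones -1.29 and -2.24. No clone passed the threshold for the dye itself, although the fitted dye effect exceeded 1 on the log2 scale in 69 of the 1920 clones. Over all clones, the stage differences within Cy5 and within Cy3 correlated at r = 0.349 (rho = 0.251). They come from separate arrays, and genes are not independent replicates.

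The 2 spots of a clone gave the same sign for all 17 clones. Their stage differences lay 0.12 apart in the median and at most 0.43. The spots of the called clones were printed in 10 of the 16 blocks of the array.

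Large differences also occurred without a call. The largest such increase was 2.92 (SE 0.61, limma adjusted p = 0.0853), in a clone with male levels of 7.09, 7.48, 8.98 and 9.22 at stage 2. Its levels at stage 3 were 10.64, 11.71, 12.07 and 10.02. The stages did not overlap, and the males within each stage differed by over 2 on the log2 scale. The largest decrease without a call was -2.47 (SE 0.58, limma adjusted p = 0.119), where 2 of the stage 3 males, at 9.14 and 8.62, lay close to a stage 2 male at 9.26. Whatever their p, 97 clones differed by over 2-fold (5.05%), 39 higher and 58 lower at stage 3.

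Whether the stage difference was particular to males was asked with the female channel of the same arrays. In females, 231 clones passed the threshold (12%), 115 higher (5.99%) and 116 lower (6.04%). The number was 80 with the sexes of stage 2 exchanged (4.17%), 32 higher (1.67%) and 48 lower (2.5%). The difference had the same sign in females for 16 of the 17 male clones, and 9 of them passed in females too, 7 higher and 2 lower. The median female difference was 0.91 over the 13 higher clones, with 12 above 0, and -1.74 over the 4 lower clones, with all below 0. The male and female differences correlated over all clones at r = 0.566 (rho = 0.599). Males and females share the arrays, spots and scans, so that this is a description only.

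The male difference was larger in size than the female for 11 of the 13 higher clones and for 2 of the 4 lower ones. A pair of the lower clones differed more in females. In one the male difference was -1.42 (SE 0.23) and the female -4.41 (SE 0.41). In the other it was -1.74 (SE 0.26) in males and -2.95 (SE 0.15) in females. Neither of these pairs of values passed the test of a difference between the sexes (limma adjusted p = 0.0670 and 0.0771).

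The first of this pair was among the clones that differed most in females. There 26 clones differed by under -3 on the log2 scale, a limit chosen after the values were seen. The male difference was below 0 in all 26, with a median of -1.27 (range -2.47 to -0.09), beside a female median of -4.01. In males, 17 of the 26 had an unadjusted p under 0.05, 6 did not overlap between the stages and 1 was called, beside 7.03%, 3.39% and 0.208% of all clones on the lower side. All 26 were in the brightest 25% of clones, where these shares were 11.7%, 3.75% and 0.833%. Since both sexes share the arrays and spots, part of the likeness in direction follows from choosing the 26 by the female difference. At stage 2 the median level of the 26 was 9.75 in males and 10.84 in females, and at stage 3 it was 8.50 and 6.52. The males of stage 2 spread by a median SD of 0.80 in these clones, against 0.46 in the brightest 25% and 0.26 over all clones. Their median difference was -2.28 in males and -2.95 in females after exchanging the sexes of stage 2. With this exchange 25 of the 26 were called in males and 25 in females. The shares of all clones called lower were then 4.17% and 2.5%. The stage 2 values that the exchange gives to males are those of the females by which the 26 were chosen.

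**Figure D3:**
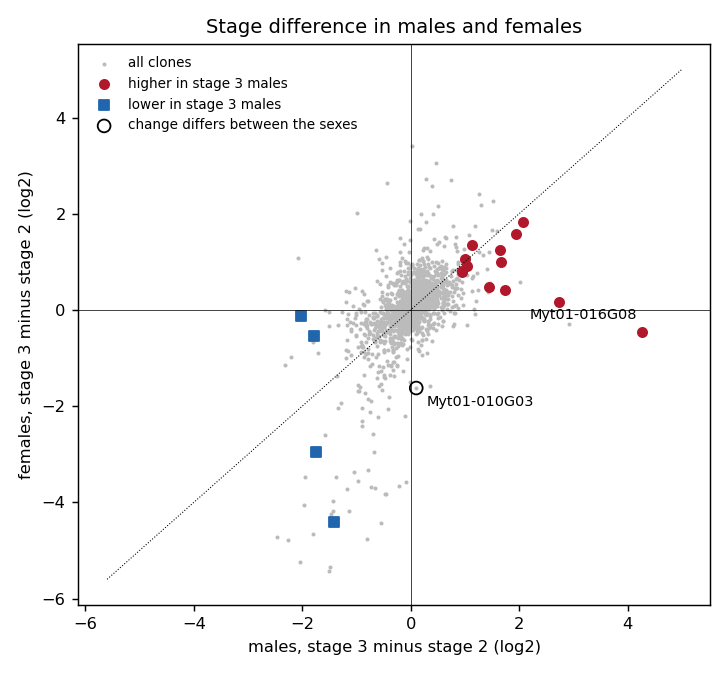
Difference between stage 3 and stage 2 (log2) in females against that in males for 1920 clones, with the 13 higher and 4 lower male clones marked and a dotted line of equal change. Myt01-010G03 is ringed, at 0.10 in males and -1.62 in females.

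The difference between the sexes was tested directly, on the male over female ratio within each array. The result of this test depended on the offset added in background correction, and 117 clones passed with an offset of 10. A change counts here as larger or smaller in males by its signed value, so that a fall in females alone also makes it larger. The male change exceeded the female change in 1 of 1920 clones (0.0521%), and no clone passed in the other direction, beside 186 and 215 clones with an unadjusted p under 0.05 (9.69% and 11.2%, together 20.9%). The ratios of the stages did not overlap in 123 clones with the larger change in males (6.41%). None of the 17 clones called in males was that clone. The B statistic exceeded 0 in 22 clones (1.15%), 18 with the larger change in males and 4 with the smaller.

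That clone was Myt01-010G03. Its log2 ratio of male over female was -0.41, -0.67, -0.67 and -0.41 in stage 2 replicates 1 to 4. In stage 3 replicates 1 to 4 it was 1.43, 0.69, 1.42 and 1.20. This clone was among them, with ratios below 0 on all stage 2 arrays and above 0 on all stage 3 arrays. The ratio was higher at stage 3 by 1.73 (SE 0.17, limma adjusted p = 0.0304). Males alone differed by 0.10 (SE 0.26) and females by -1.62 (SE 0.15, limma adjusted p = 0.000476). The call held without stage 3 replicate 2 or 4 (limma adjusted p = 0.0108 and 0.00984) and was lost without any other single array. With the sexes of stage 2 exchanged the difference was 0.64 (limma adjusted p = 0.161).

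The next clones by p did not pass and are given as values. Myt01-014G03 differed by 1.93 (SE 0.27, limma adjusted p = 0.0570), from 0.36 in males and -1.57 in females. Myt01-003G05 differed by -1.20 (SE 0.17, limma adjusted p = 0.0570), with males at -0.87 and above background on no stage 3 array. Myt01-001H02 differed by -1.07 (SE 0.15, limma adjusted p = 0.0570), with males at -1.15 and females at -0.08. The number of calls in this test was unstable. It was 233 without stage 3 replicate 4, 120 with the larger change in males and 113 with the smaller, but 0 or 1 without any other array.

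The arrays of stages 1 and 4, which took no part in the calls, place both stages in the cycle. For this the 16 arrays were normalised together. At stage 4, replicates 2 and 4 shared the deviations of single spots (r = 0.592) and differed by less than the sampling noise, so that they were counted as 1 sample and n = 3 there. The median male level of the 13 higher clones was 8.12, 7.77, 10.30 and 9.58 at stages 1 to 4, and that of the 4 lower clones was 8.76, 9.09, 7.48 and 7.76. Over all clones it stayed between 6.65 and 6.69. The stage 2 medians were 8.48 and 8.98 with the sexes of that stage exchanged.

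For most higher clones, males of stage 4 were nearer to stage 3 and males of stage 1 nearer to stage 2. Stage 3 had the highest mean of the 4 stages in 12 of the 13 higher clones (92.3%, beside 23.7% of all clones), and stage 2 the lowest in 9 (69.2%, beside 21.9%). The stage 4 mean was nearer to stage 3 than to stage 2 in 13 of 13 (61.6% of all clones), and the stage 1 mean in 1 of 13 (46.8%). Of the 4 lower clones, stage 4 was nearer to stage 3 in 4, and stage 1 in 2. With the sexes of stage 2 exchanged, stage 4 was nearer to stage 3 in 13 of the higher and 2 of the lower clones, and stage 1 in 2 and 1. Part of such nearness follows from the choice of clones, since stages 2 and 3 set both ends of the scale.

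Stages 1 and 4 alone avoid that. Between them the 13 higher clones differed by a median of 0.94 in males (stage 4 minus stage 1, range -0.11 to 2.51), with 12 above 0, beside a median of -0.01 over all clones. Stage 4 males lay above all stage 1 males in 8 of the 13, as in 9.84% of all clones. The 4 lower clones had a median of -1.22, with 3 below 0. In 2 of them stage 4 males lay below all stage 1 males, as in 8.85% of all clones, and in 1 they lay above.

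The named clones followed separate courses. The male level of Myt01-016G08 was 7.82 ± 0.37 at stage 1 and 10.33 ± 1.36 at stage 4 (SD; n = 4 and 3). That of Myt01-017E01 was 6.19 ± 0.14 and 8.50 ± 1.14. Stage 4 males were thus high in both, with a wide spread. Myt01-003G12 was 7.44 ± 0.18 at stage 1 and 8.11 ± 0.12 at stage 4, and Myt01-001F06 was 7.75 ± 0.21 and 7.64 ± 0.39. For this pair it was stage 2, at 9.59 ± 1.32 and 8.99 ± 0.85 in the same normalisation, that stood above the other 3 stages. Myt01-010G03 was highest in males at stage 1 (9.61 ± 0.43) and lay between 7.71 and 7.86 at the later stages. With the same exchange its stage 2 mean was 8.25 ± 0.45. That of Myt01-016G08 was 8.87 ± 1.34 and that of Myt01-017E01 was 6.71 ± 0.41.

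**Figure D4:**
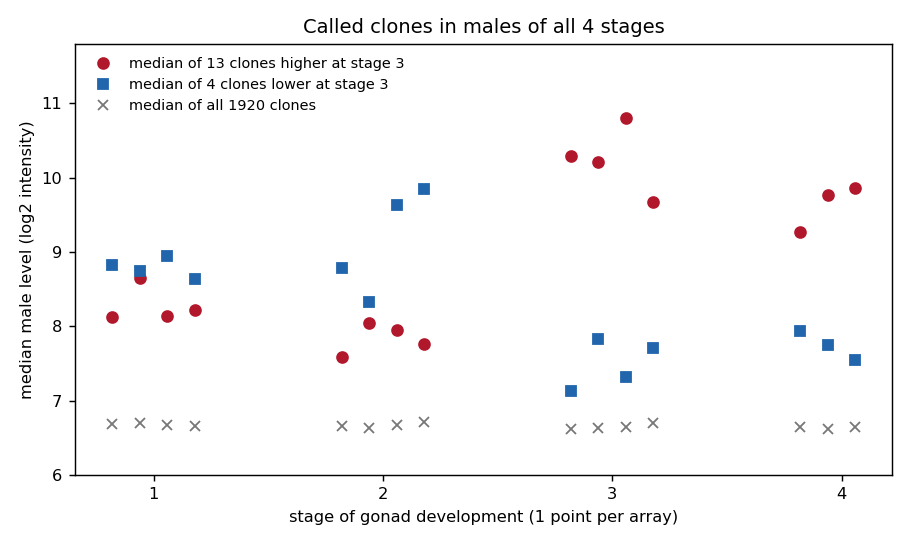
Median male level (log2 intensity) of the 13 higher clones, the 4 lower clones and all 1920 clones on each array of the 4 stages, with stage 4 replicates 2 and 4 averaged. The higher clones have array medians of 9.27 to 9.86 at stage 4 and 8.13 to 8.65 at stage 1, neither of which entered the calls.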

How the data were processed

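Digestive gland RNA of single mussels was labelled by the authors with Cy3 or Cy5, and 1 male and 1 female of a stage were hybridised together. The deposited scanner files give the foreground and background intensity of every spot in both channels, on a linear scale and not normalised; 608 spots were blank and 112 were alignment controls. The deposited value table holds the authors' log2 ratio per spot, whose sign is female over male (r = 0.997 to 1.00 with the scanner ratios, column medians -0.0261 to 0.0207), and was used only as an alternative. The submitters' notes name limma, with no version; the methods describe offset background subtraction, loess and a B statistic over 0.

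Background was corrected here with normexp and an offset of 50, arrays were normalised by loess with control spots left out, and average intensities were made equal between the 8 arrays (Aquantile), in limma 3.58.1 under R 4.3.3. The male channel was taken by the dyes in the labels, and the spots of a clone were averaged. A linear model of stage and male dye left 5 residual degrees of freedom; tests were two-sided. The male over female ratio was fitted in the same way to compare the change of males with that of females. Spots brighter than the background around them by 2 of its SDs counted as above background. Dim clones and all 8 arrays were kept. The number of arrays limits the precision.

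Replicates are single animals by the labels and methods. No pair of the 8 arrays looked like 1 slide (spot deviations r = -0.0273 to 0.0596, 28 pairs). The clones named are the 2 largest called differences in each direction without overlap between stages, or those of smallest p where fewer passed; other clones described were chosen after their values were seen. The comparison, members and lists were chosen with earlier results of these data known. Gene and marker lists gave no result, as no clone has a gene name here. In simulated data of 1920 clones, 100 were changed 2-fold and 100 were changed 4-fold, with noise drawn independently for each clone and array. There the stage comparison in males recovered 68% of clones changed 2-fold and 92% of those changed 4-fold, and called 11 unchanged clones. Deviations shared by the clones of an array were not simulated, and the number of changed clones was set in advance. These shares therefore need not hold for the real arrays. The alternatives tried are given in the closing section. The other 8 arrays entered the levels at stages 1 and 4, the ratio correlations between stages and the alternatives that use all 16 arrays. Values with the sexes of stage 2 exchanged in females and in the levels by stage were added after seeing the data.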

Additional observations from a re-analysis of the deposited data

Results flagged for a closer look

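The 8 named clones were examined at both stages, in 16 groups of 4 values. The values were male levels for the 4 clones named in the male comparison. They were male over female ratios for the 4 clones named in the comparison of the sexes. In 2 groups a value lay far from the other 3, where chance alone would give about 1 group in 20. The male level of Myt01-016G08 was 9.80 on stage 3 replicate 4, against 12.23 to 12.59 on the other stage 3 arrays. That of Myt01-001F06 was 6.97 on stage 3 replicate 1, against 7.38 to 7.46 on the others. The signed difference between stages of Myt01-010G03 was 1.73 higher in males than in females on the log2 scale (limma adjusted p = 0.0304 for the difference itself). It was 0.10 in males and -1.62 in females, so that the stages differed in females and hardly in males. The male over female ratio was higher on 4 of 4 stage 3 arrays than on any stage 2 array.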

How the results depend on the processing

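The number of clones called between stage 3 and stage 2 males, 17, stayed within 1.5 times under 10 of 28 alternatives. It was 3 without background correction, 11 with male channels centred on their median and 35 among 737 clones above background on 4 or more arrays. Calls numbered 1 within Cy5, 0 within Cy3 and 30 in a separate channel fit of both sexes (15 higher and 15 lower). There were 38 with all 4 stages sharing 1 spread, 39 with array weights and 117 with the 2 spots of a clone kept apart. In the last fit the spots entered as correlated duplicates (r = 0.464), although both come from the same animals. With the sexes of stage 2 exchanged the number of calls was 161 (81 higher and 80 lower). Without single arrays it ranged from 0 to 19. The named clones of this comparison kept their direction under all 28, and their limma adjusted p ranged up to 0.350, 0.213, 0.258 and 0.249.

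The number called for a larger or smaller change in males than in females, 1, was 0 without background correction and with the sexes of stage 2 exchanged, 117 with an offset of 10, 2 with print-tip loess, 102 with median centring, 74 among 982 clones above background on 4 or more arrays, 19 without the dye term, 17 in the value table and 22 by the B statistic. Without single arrays it ranged from 0 to 233. With the sexes exchanged, Myt01-003G05 turned to 0.81 and Myt01-001H02 to 0.65. The cause of these changes was not tested.

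Replicate numbers were not taken as pairs, since the stages are of different animals and months. Deviations of same-numbered arrays from their stage means correlated at r = 0.250, 0.107, -0.0198 and 0.226 for replicates 1 to 4. Replicates 1 and 4 had the male in the same dye at both stages. Arrays of different numbers were not compared, so these values cannot show whether the numbers pair the samples. With the replicate block added, 0 clones were called in either comparison by limma, 244 and 334 having an unadjusted p under 0.05. With 676 clones above background in males on no array, the signal limits what can be seen of dim clones, although 3 of those called were above background on no stage 2 array.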
